A study of Mus musculus with 15 samples.

Results

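Ccl17, Ccl22, Ccr4, Ccr8, Ccl20 and Ccr6 are 6 genes of the chemokine system, 3 ligands and 3 receptors, that were taken by name from the 55487 genes of a table of mouse conjunctival RNA-Seq. All 6 passed the filter of at least 10 counts in at least 5 libraries that left 19006 genes for testing. The table held 15 libraries from female WT mice of the BALB/c strain (spelled BALC/c in the labels), 9 to 12 weeks old, with 5 libraries in each of 3 groups. Every mouse was sensitized through the skin of the ear with MC903 (calcipotriol, a vitamin D analogue that inflames the skin, at 2.5 nmol per day for 7 days) together with ovalbumin (OVA), in the control group too. The PBS group was challenged in the eye with PBS and its labels name no antibody, whereas the isotype and anti–IL-4Rα groups were challenged with OVA on 7 days (day 18 to day 24) and were given isotype control or an antibody against the shared receptor chain of IL-4 and IL-13 at 25 mg/kg. The isotype group set against the PBS group therefore carries the OVA challenge and the isotype control together, and these cannot be told apart.

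Chemokines are small secreted proteins that guide migrating cells through receptors on the cell surface. Ccl17 and Ccl22 are made largely by dendritic cells and macrophages, and Ccl17 also by epithelial cells. Both bind Ccr4, a receptor carried by Th2 cells, regulatory T cells and skin-homing T cells, and both are known targets of IL-4 and IL-13 acting through the transcription factor STAT6. Ccr8 marks subsets of Th2 cells and tissue regulatory T cells and binds Ccl1 and, in the mouse, Ccl8. Ccl20 is an epithelial chemokine induced by IL-17, TNF and IL-1, and its receptor Ccr6 is found on Th17 cells, B cells and immature dendritic cells. In allergic disease of the ocular surface, Ccl17 and Ccl22 are known as chemokines that draw Th2 cells to the conjunctiva.

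On the GRCm38 build, Ccl17 (ENSMUSG00000031780, chr8:94810453-94812036) and Ccl22 (ENSMUSG00000031779, chr8:94745590-94751699) lie on the + strand of the same chromosome, 58753 bases apart. In that stretch the annotation places 1 protein coding gene, Cx3cl1 (another chemokine, which draws monocytes), and a pseudogene. Ccr4 (ENSMUSG00000047898, chr9:114490316-114504916, - strand) and Ccr8 (ENSMUSG00000042262, chr9:120092114-120094906, + strand) share a second chromosome. Ccl20 (ENSMUSG00000026166, chr1:83116766-83119167) and Ccr6 (ENSMUSG00000040899, chr17:8236043-8257141) are on the + strand of others. No other annotated gene overlapped any of the 6, on either strand.

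Ccl17 and Ccl22 share a receptor and a neighbourhood and were the 2 of the 6 genes called in what followed. The bases just upstream of each are therefore shown 5′ to 3′, from the RefSeq promoter windows of GRCm38.p6. Capitals mark stretches in which TTC and GAA stand 4 bases apart, the spacing preferred by STAT6, or 3 bases apart, the spacing preferred by other STAT proteins. The first stretch covers chr8:94810203-94810452 (250 bases) and the second chr8:94745434-94745589 (156 bases), both on the + strand and both ending where the annotated gene starts.
Ccl17: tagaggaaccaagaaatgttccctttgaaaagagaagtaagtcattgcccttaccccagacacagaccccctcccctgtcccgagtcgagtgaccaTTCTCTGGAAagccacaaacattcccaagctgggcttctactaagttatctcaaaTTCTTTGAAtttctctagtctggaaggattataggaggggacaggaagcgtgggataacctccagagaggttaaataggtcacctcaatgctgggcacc
Ccl22: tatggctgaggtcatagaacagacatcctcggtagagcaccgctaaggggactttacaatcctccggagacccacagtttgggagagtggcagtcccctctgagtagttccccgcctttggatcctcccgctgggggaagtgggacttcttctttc
The Ccl17 window held TTCTCTGGAA, with the STAT6 spacing, from 154 to 145 bases before the start site, and TTCTTTGAA, with the shorter spacing, from 99 to 91 bases before it. The full 250-base window of Ccl22 held neither spacing. The STAT6 spacing (TTC, any 4 bases, GAA, both strands) was in 5.85% of 32851 promoter windows of that length, and the shorter spacing (TTC, any 3 bases, GAA) in 7.02%. Among the windows of the other 4 genes, the shorter spacing stood at 2 places before 1 start site of Ccr6. An AP-1 match (TGANTCA, in 6.75% of windows) stood before a RefSeq start site of Ccr4 that lies inside the annotated gene. These matches describe letters only, and no binding was measured.

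Library totals ran from 48622206 to 87744991 counts and did not differ detectably between groups (two-sided p of 0.778, 0.929 and 0.754 in exact permutation tests). Markers of conjunctival epithelium and goblet cells were abundant in every library (Krt13 with at least 22436 counts, Muc5ac with at least 42088). Genes of neighbouring tissues were detected as well. Of 9 lacrimal acinar genes matched in the table, 6 were tested, and the summed level of all 9 ran from 138 to 3718 CPM (counts per 1000000, scaled by TMM factors) with PBS, from 168 to 2575 CPM with isotype and from 254 to 11039 CPM after anti–IL-4Rα, with medians of 388, 749 and 7766. Among its markers Dcpp1, Dcpp2 and Dcpp3 were at or near 0 throughout. All 5 skeletal muscle genes were lower in the isotype than in the PBS group (median log2 fold change -0.71) and none of 4 meibomian gland genes was called in any comparison. In such bulk tissue, fewer cells of a type and less RNA per cell cannot be told apart.

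Levels were ranked between genes only as CPM per kb of exon. In the PBS group they ran from 5.31 ± 0.65 (SD, n = 5) for Ccl22 through 2.35 ± 0.65 for Ccl17, 1.96 ± 0.48 for Ccl20, 0.94 ± 0.20 for Ccr4 and 0.62 ± 0.14 for Ccr6 to 0.23 ± 0.11 for Ccr8. Libraries of Ccl17 and Ccl20 overlapped in that order, as did those of Ccr4 and Ccr6, while the other neighbours did not. In the anti–IL-4Rα group Ccl17 stood at 0.55 ± 0.14, in a lower place in the order, below Ccl20 (1.74 ± 0.86), Ccr4 (0.79 ± 0.18) and Ccr6 (0.61 ± 0.16). There the range of Ccl17 overlapped those of Ccr6 and Ccr4 but not that of Ccl20.

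**Figure D1:**
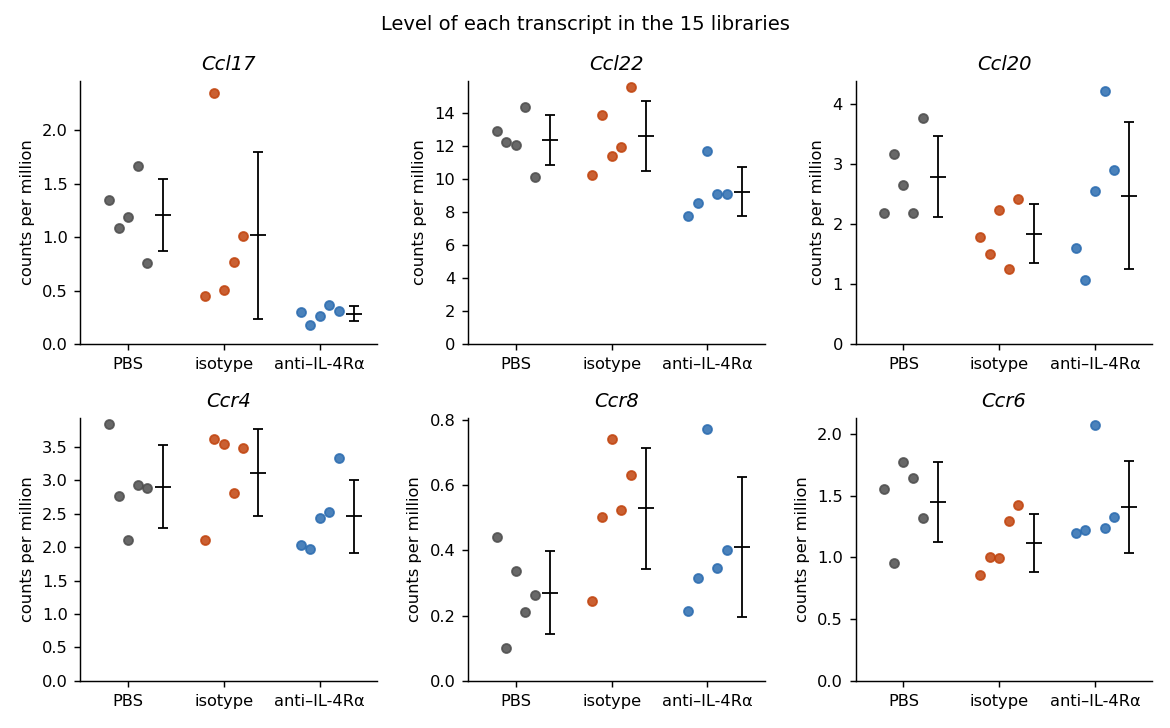
CPM of each transcript (vertical axes, from 0) in the 15 libraries by group, each point 1 library, with the mean and SD of each group as bars. The 5 anti–IL-4Rα libraries of Ccl17 sit between 0.181 and 0.371, below all 10 others, while the groups overlap for the other 5 genes.

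Ccl17 showed the widest separation. Its level in PBS libraries 1 to 5 was 1.35, 1.09, 1.19, 1.66 and 0.756 CPM. In the isotype libraries it was 0.449, 2.35, 0.505, 0.769 and 1.01 CPM. In the anti–IL-4Rα libraries it was 0.298, 0.181, 0.262, 0.371 and 0.307 CPM, resting on 12 to 18 counts each. All 5 values after anti–IL-4Rα lay under the lowest value of both other groups, and isotype replicate 2 stood above all of the PBS libraries.

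Against the isotype group, Ccl17 was 3.68-fold lower after anti–IL-4Rα (log2 fold change -1.88, SE 0.43, 95% interval -2.79 to -0.97, edgeR quasi-likelihood test with Benjamini-Hochberg adjustment over all tested genes, adjusted p = 0.0159). An exact permutation test on the log2 CPM gave a two-sided p of 0.00794, the lowest value possible with 5 libraries against 5. Against the PBS group, which had no OVA in the eye, it was 4.30-fold lower (log2 fold change -2.10, SE 0.43, 95% interval -3.02 to -1.19, adjusted p = 0.0255; exact p = 0.00794). The difference between the isotype and PBS groups did not pass (log2 fold change -0.22, SE 0.38, 95% interval -1.04 to 0.60, adjusted p = 0.730). These comparisons share groups and are not independent of each other. Without isotype replicate 2, the fall against the isotype group was smaller (log2 fold change -1.29, adjusted p = 0.0260) and the difference of isotype from PBS was -0.82 (adjusted p = 0.0714).

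Lacrimal acinar genes moved with this result. The library with the highest Ccl17 level, isotype replicate 2, had the lowest lacrimal sum of its group (168 CPM), and 4 of the 5 anti–IL-4Rα libraries had the highest sums of all (4084 to 11039 CPM). The remaining one, anti–IL-4Rα replicate 3, had a lacrimal sum of 254 CPM, within the range of both other groups, and a Ccl17 level of 0.262 CPM, within the range of its own group. With the lacrimal score as a covariate, the log2 fold change of Ccl17 was -1.32 against the isotype group (adjusted p = 0.110) and -1.55 against the PBS group (adjusted p = 0.104), so both calls were lost. Within groups, Ccl17 gave r = -0.52 with the lacrimal score (adjusted permutation p = 0.145) and rho = -0.37 (adjusted permutation p = 0.424). Its r was -0.17 without the 2 farthest libraries. Ccl22 gave r = -0.60 (adjusted permutation p = 0.145) and rho = -0.59 (adjusted permutation p = 0.221). None of 6 such relations, chosen after seeing the data, passed. A further fit, chosen after seeing the data, left out the library of lowest lacrimal score in each group. The log2 fold changes of Ccl17 were then -1.27 against isotype (adjusted p = 0.0284) and -2.04 against PBS (adjusted p = 0.00650). The anti–IL-4Rα libraries left in that fit had lacrimal scores of at least 8.01, above every other library left (at most 7.66). That fit therefore cannot separate treatment from lacrimal content. Both calls were also lost when linear models were fitted to log2(CPM + 1) or log2(FPKM + 1), and the call against the isotype group in a fit to those 2 groups alone (adjusted p = 0.0549). Against the PBS group it was lost without any 1 of PBS replicates 1, 2 and 4 or anti–IL-4Rα replicates 1, 2 and 5 (adjusted p from 0.0552 to 0.0649).

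**Figure D2:**
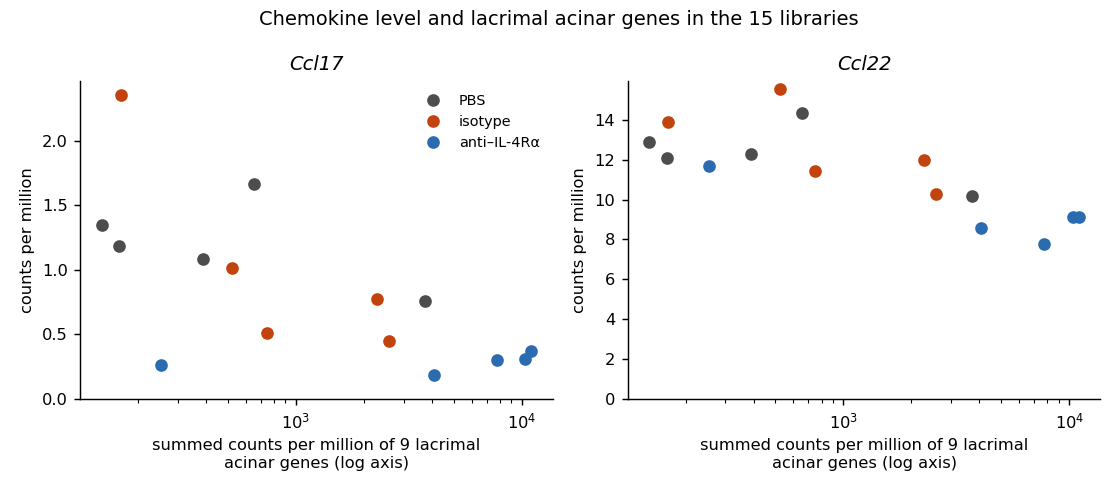
CPM of Ccl17 and Ccl22 (vertical axes, from 0) against the summed CPM of 9 lacrimal acinar genes (log axis), each point 1 library coloured by group. The anti–IL-4Rα library with a lacrimal sum of 254 has low Ccl17 (0.262) but the highest Ccl22 of its group (11.7).

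Ccl22, the most abundant of the 6 transcripts per length, moved far less. It stood at 12.9, 12.3, 12.1, 14.4 and 10.2 CPM in the PBS libraries. The isotype libraries were at 10.3, 13.9, 11.4, 12 and 15.6 CPM, spread over much the same range as PBS. After anti–IL-4Rα the values were 7.78, 8.55, 11.7, 9.12 and 9.12 CPM. Of these, 4 libraries were below every isotype and PBS library, and replicate 3 was within their range.

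The mean of Ccl22 was 1.36-fold lower after anti–IL-4Rα than with isotype control (log2 fold change -0.45, SE 0.13, 95% interval -0.73 to -0.17, adjusted p = 0.0358; exact p = 0.0238, groups overlapping). The difference from the PBS group was of similar size (log2 fold change -0.42, SE 0.13) but did not pass (adjusted p = 0.0791; exact p = 0.0159). Isotype and PBS groups were close (log2 fold change 0.03, 95% interval -0.24 to 0.31, adjusted p = 0.891), with a sign that turned when some single libraries were left out. Unlike for Ccl17, the anti–IL-4Rα library of low lacrimal content, replicate 3, was the one that overlapped the other groups, and with the lacrimal covariate the log2 fold change of Ccl22 against the isotype group was -0.32 (adjusted p = 0.171). That call was further lost without a filter, in linear models, in the fit to those 2 groups, and without any 1 of isotype replicates 2, 3 and 5 or anti–IL-4Rα replicates 1, 2, 4 and 5 (adjusted p up to 0.0871). Against the PBS group it was gained without anti–IL-4Rα replicate 3 (adjusted p = 0.0189) and with DESeq2 (adjusted p = 0.0318).

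The 2 ligands of Ccr4 were then compared within each library, which does not depend on library size. Here and in the ratios below, counts were not scaled by exon length (514 bases for Ccl17 and 2325 for Ccl22). The shares therefore compare groups and do not rank the genes. Ccl17 counts amounted to 10.4%, 8.85%, 9.81%, 11.6% and 7.44% of Ccl22 counts in the PBS libraries. In the isotype libraries they amounted to 4.38%, 16.9%, 4.42%, 6.42% and 6.50%. In the anti–IL-4Rα libraries the share was 3.84%, 2.12%, 2.24%, 4.07% and 3.37%, below every library of the other groups. The log2 ratio differed by -1.12 between the anti–IL-4Rα and isotype groups and by -1.62 between the anti–IL-4Rα and PBS groups, each with exact permutation p = 0.00794 and an adjusted p of 0.0357 over 18 tests of ratios. By this test Ccl17 was lower relative to Ccl22. The difference between isotype and PBS did not pass (difference -0.50, exact p = 0.222), and 4 of the 5 isotype libraries were below all of the PBS libraries. With any 1 anti–IL-4Rα library left out, the adjusted p against the isotype group was 0.0612 to 0.0857.

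A further set of ratios, chosen after seeing the data, put both ligands against the summed counts of 10 dendritic cell genes and of 10 surface epithelium genes. Relative to dendritic cell genes, Ccl17 was lower after anti–IL-4Rα than with isotype control (difference in log2 ratio -1.12, exact p = 0.0238, adjusted p = 0.0476 over 12 tests) and than in the PBS group (difference -2.14, exact p = 0.00794, adjusted p = 0.0317). The difference of isotype from PBS in the same ratio was -1.02 and did not pass (exact p = 0.0714, adjusted p = 0.107). Ccl22 relative to the same genes gave a difference of 0.00 between the anti–IL-4Rα and isotype groups (exact p = 0.984), and was lower by a log2 difference of -0.52 in each OVA-challenged group than in PBS (exact p = 0.0159, adjusted p = 0.0381 for both). The dendritic cell genes themselves had 5 of 10 called higher in the isotype than in the PBS group, led by Flt3 (a growth factor receptor of dendritic cells, log2 fold change 1.32, adjusted p = 0.00663) and Fscn1 (a cytoskeletal protein of migrating dendritic cells, 1.0, adjusted p = 0.00192), with Cd207, the Langerhans cell lectin, lower (-0.48, adjusted p = 0.0318). After anti–IL-4Rα 3 of 10 were lower than with isotype, among them Fscn1 (-0.81, adjusted p = 0.00862) and Cd209a (-0.63, adjusted p = 0.0458). The ratios to dendritic cell genes hence cannot separate a change of a ligand from a change of these genes. Against the surface epithelium genes, the difference of Ccl17 was -1.18 from the isotype group (exact p = 0.0397, adjusted p = 0.0680) and -1.81 from the PBS group (exact p = 0.00794, adjusted p = 0.0317). For Ccl22 the corresponding differences were -0.06 (exact p = 0.667) and -0.19 (exact p = 0.00794, adjusted p = 0.0317). Of these, the differences of Ccl17 from isotype and of Ccl22 from PBS relative to dendritic cell genes, and of Ccl22 from PBS relative to epithelium, rose above an adjusted p of 0.05 when some single libraries were left out (up to 0.119, 0.0714 and 0.107), while those of Ccl17 from PBS did not (up to 0.0476).

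Ccr4, the receptor of both ligands, was called in no comparison. The PBS libraries held 3.84, 2.77, 2.11, 2.92 and 2.88 CPM. The isotype libraries held 2.10, 3.61, 3.53, 2.81 and 3.48 CPM, and the anti–IL-4Rα libraries 2.02, 1.97, 2.43, 2.52 and 3.33 CPM. All 3 groups overlapped, with 1 library of the PBS group, replicate 1, above the rest. The log2 fold changes were 0.10 for isotype against PBS (95% interval -0.30 to 0.50, adjusted p = 0.754), -0.34 for anti–IL-4Rα against isotype (-0.75 to 0.06, adjusted p = 0.219) and -0.24 for anti–IL-4Rα against PBS (-0.65 to 0.16, adjusted p = 0.474). The intervals leave room for a fall of the size seen for Ccl22, but not for one of the size seen for Ccl17.

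Ccr8, with 6 to 53 counts per library, was the scarcest of the 6. Its level was 0.440, 0.102, 0.336, 0.210 and 0.264 CPM in the PBS libraries. It was 0.245, 0.501, 0.741, 0.524 and 0.632 CPM in the isotype libraries, so that 4 of 5 exceeded all of PBS. In the anti–IL-4Rα libraries it was 0.213, 0.316, 0.772, 0.346 and 0.402 CPM, with replicate 3 the highest of all 15. The isotype group was 1.94-fold higher than the PBS group (log2 fold change 0.95, SE 0.39, 95% interval 0.11 to 1.80), with an unadjusted p of 0.0299 and an exact p of 0.0476, but the adjusted p was 0.109. It passed with limma's voom and sample quality weights (adjusted p = 0.0319) and with the lacrimal covariate (adjusted p = 0.0318), and in no fit with 1 library left out (adjusted p from 0.0528 to 0.225). The anti–IL-4Rα group did not differ detectably from either the isotype group (log2 fold change -0.35, 95% interval -1.17 to 0.48, adjusted p = 0.547) or the PBS group (0.60, -0.26 to 1.47, adjusted p = 0.397). Set against Ccr4 in the same libraries, Ccr8 had a median of 9.15% of the Ccr4 count with PBS and 18.1% after OVA with isotype control, a difference in log2 ratio of 0.91 that did not pass (exact p = 0.0317, adjusted p = 0.0714).

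Ccl20 and its receptor Ccr6 were measured in the same way. Ccl20 was at 2.19, 3.17, 2.65, 2.18 and 3.76 CPM in the PBS libraries, at 1.78, 1.49, 2.24, 1.26 and 2.42 CPM in the isotype libraries and at 1.60, 1.07, 2.55, 4.22 and 2.91 CPM in the anti–IL-4Rα libraries. The isotype libraries were the lower set, with 3 of 5 below all of PBS, and the anti–IL-4Rα libraries spread over the whole range. The isotype group was 1.52-fold below PBS in the mean (log2 fold change -0.60, SE 0.31, 95% interval -1.27 to 0.06; exact p = 0.0476, adjusted p = 0.195), which did not pass. After anti–IL-4Rα the log2 fold change was 0.42 against isotype (adjusted p = 0.360) and -0.18 against PBS (adjusted p = 0.781). None of 11 genes known to be induced by IL-17, TNF or IL-1, as Ccl20 is, was called in any comparison.

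Ccr6 stood at 1.55, 0.950, 1.77, 1.64 and 1.32 CPM in the PBS libraries. Values were 0.858, 1.0, 0.993, 1.29 and 1.43 CPM with isotype control and 1.19, 1.22, 2.07, 1.24 and 1.32 CPM after anti–IL-4Rα. The groups overlapped in every comparison, and anti–IL-4Rα replicate 3 was the highest library. The log2 fold change was -0.38 for isotype against PBS (95% interval -0.82 to 0.06, adjusted p = 0.221), 0.34 for anti–IL-4Rα against isotype (adjusted p = 0.259) and -0.03 for anti–IL-4Rα against PBS (adjusted p = 0.949).

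In all, 0 of the 6 genes passed the threshold of adjusted p = 0.05 between the isotype and PBS groups, where 17.0% of all tested genes did. At an unadjusted p under 0.05 there was 1, Ccr8. DESeq2 called 0 and voom with sample quality weights 1. Between the anti–IL-4Rα and isotype groups 2 of 6 were called, both lower, against 8.13% of all tested genes called lower, and 1 of 6 had non-overlapping libraries, against 4.96% lower without overlap. Between the anti–IL-4Rα and PBS groups 1 of 6 was called lower, against 1.45% of all genes, and the same gene, Ccl17, did not overlap, against 3.12%. The median log2 fold change of the 6 was -0.10, -0.35 and -0.21 in the 3 comparisons, beside -0.01, 0.01 and -0.00 over all genes.

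**Figure D3:**
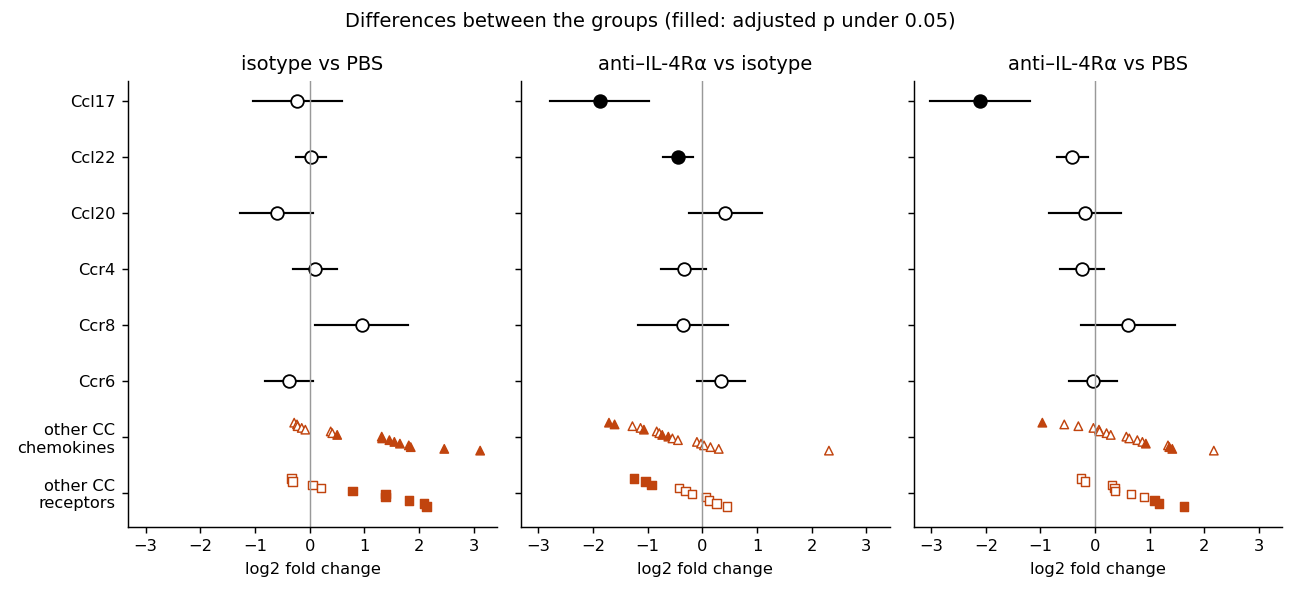
Log2 fold changes (horizontal axes) in the 3 comparisons, with 95% intervals as lines for the 6 genes and single points for 17 other CC chemokines (triangles) and 10 other CC receptors (squares). Filled symbols passed adjusted p = 0.05: none of the 6 genes for isotype against PBS, Ccl17 and Ccl22 for anti–IL-4Rα against isotype, and Ccl17 for anti–IL-4Rα against PBS.

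Of 17 other CC chemokines tested, 10 were called higher in the isotype than in the PBS group and 0 lower (median log2 fold change 1.32), where 9.53% of all genes were called higher. The largest rises were those of Ccl8 (a chemokine of monocytes and, through Ccr8, of Th2 cells, 3.12, adjusted p = 0.000177) and Ccl3 (a chemokine of inflammatory leukocytes, 2.46, adjusted p = 0.00387). Ccl1, the other ligand of Ccr8, was at 0.41 on the same log2 scale (adjusted p = 0.426). After anti–IL-4Rα, 5 of the 17 were lower than with isotype, led by Ccl8 (-1.71, adjusted p = 0.00441) and Ccl7 (-1.61, adjusted p = 0.0259). Ccl8 nevertheless stayed above PBS (1.41, adjusted p = 0.0252). Against PBS, 3 of 17 were higher, Ccl8 and Ccl5 (1.36, adjusted p = 0.0147) with the largest folds, where 2.29% of all genes were. The 1 called lower was Ccl27a, a keratinocyte chemokine for skin-homing T cells (-0.97, adjusted p = 0.00662, and -0.74 with adjusted p = 0.00743 against isotype). Ccl17 and Ccl27a were hence the CC chemokines called below both other groups after anti–IL-4Rα. Ccl27a kept both calls in all 13 alternative settings, whereas both calls of Ccl17 were lost with the lacrimal covariate and in linear models. Ccl11, not called against PBS, also had its anti–IL-4Rα libraries (16.3 to 19.0 CPM) below all others. Its PBS libraries were at 22.7 to 29.5 CPM and its isotype libraries at 24.6 to 52.9 CPM. Cx3cl1, named for its place between Ccl22 and Ccl17, was at -0.26 for isotype against PBS (adjusted p = 0.0781), 0.38 for anti–IL-4Rα against isotype (adjusted p = 0.0241) and 0.12 for anti–IL-4Rα against PBS (adjusted p = 0.498).

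Among 10 other CC receptors, 6 were called higher in the isotype group than in PBS, with Ccr1, a receptor of monocytes and other leukocytes, in front (2.14, adjusted p = 0.000641). After anti–IL-4Rα 3 were lower than with isotype, with the largest falls in Ccr1 (-1.25, adjusted p = 0.0127) and Ccr7 (the receptor that leads dendritic cells to lymph nodes, -1.04, adjusted p = 0.0206). Against PBS 3 were still higher, with Ccr3, the eosinophil receptor, at 1.63 (adjusted p = 0.0309). Ackr2, a decoy receptor that takes up Ccl17 and Ccl22, was at -0.31 for isotype against PBS (adjusted p = 0.355).

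The cells that carry these receptors were followed through their own genes. Of 10 pan T cell genes 3 were higher in the isotype than in the PBS group, Cd4 (1.70, adjusted p = 0.00506), Trac (0.94, adjusted p = 0.0205) and Cd3d (0.73, adjusted p = 0.0307), whereas Cd3e was at 0.23 (adjusted p = 0.556). After anti–IL-4Rα 0 of 10 differed from isotype, and Cd4 was higher than in PBS (1.5, adjusted p = 0.0303). Of 6 Th2 and innate type 2 genes tested, 3 were higher with OVA and isotype, Il1rl1 (the IL-33 receptor, 2.27, adjusted p = 0.000936), Il4 (1.74, adjusted p = 0.0165) and Il13 (1.3, adjusted p = 0.00717), while Gata3, which epithelium also expresses, was at 0.17 (adjusted p = 0.479). Il1rl1 was the 1 of 6 called lower after anti–IL-4Rα than with isotype (-1.60, adjusted p = 0.00769), and none of the 6 was called against PBS. Regulatory T cell genes gave 4 of 8 higher after OVA with isotype, led by Tigit (2.14, adjusted p = 0.00324) and Foxp3 (1.61, adjusted p = 0.00414). After anti–IL-4Rα 1 of 8 was lower than with isotype (Tnfrsf18, -0.47, adjusted p = 0.0287), and Foxp3 (1.44, adjusted p = 0.0255) and Tigit (1.54, adjusted p = 0.0402) were higher than in PBS. Il17a, the Th17 cytokine, at a mean of 0.242 CPM in PBS and 0.0238 CPM with isotype, did not pass (adjusted p = 0.0598).

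B cell genes gave 2 of 7 higher in the isotype than in the PBS group, Cd22 (an inhibitory receptor of B cells, 2.07, adjusted p = 0.00694) and Fcrla (2.0, adjusted p = 0.00305). After anti–IL-4Rα Cd22 was lower than with isotype (-1.32, adjusted p = 0.0451), a call lost in 10 of 15 fits with 1 library left out (adjusted p up to 0.113) and in 3 of 13 other settings, and 0 of 7 were called against PBS. Genes known to be induced by IL-4 or IL-13 served as a gauge of the blocked pathway. Of 10, 8 were higher and 1 lower with OVA and isotype, with the chitinase-like proteins Chil4 (mean 0.0282 CPM in PBS and 116 CPM with isotype, adjusted p = 9.62e-05) and Chil3 (0.0208 and 1.41 CPM, adjusted p = 0.00118) in front. After anti–IL-4Rα 9 of 10 were lower than with isotype, among them Chil4 (mean 0.00774 CPM, adjusted p = 2.03e-05) and Chil3 (0.0508 CPM, adjusted p = 0.00369), and against PBS 1 was lower, the decoy receptor Il13ra2 (-1.32, adjusted p = 0.00262). Outside the isotype group no library had more than 7 counts of either, and reads of these close paralogs may be shared between them. Of 10 surface epithelium genes, 1 was called higher in the isotype than in the PBS group (Krt14, 0.55, adjusted p = 0.00693). Between anti–IL-4Rα and PBS 0 of 10 were called. After anti–IL-4Rα, 9 of the 10 were below 0 against isotype (median -0.23), with Krt14 (a basal cell keratin, -0.75, adjusted p = 0.00243) and Trp63 (a factor of basal cells, -0.25, adjusted p = 0.0329, lost in 5 of 15 fits with 1 library left out) called lower. The 1 called higher was the corneal keratin Krt12 (3.55, adjusted p = 0.0293), whose call was lost in 4 of 15 such fits and 6 of 13 other settings, with a value of 1.79 without anti–IL-4Rα replicate 1. All 6 tested lacrimal acinar genes had log2 fold changes above 0 after anti–IL-4Rα (median 2.49 against isotype and 2.79 against PBS). The 1 called in each comparison was Aqp5, at 0.48 against isotype (adjusted p = 0.0444) and 0.61 against PBS (adjusted p = 0.0398). Its calls were lost in 12 and 9 of 15 fits with 1 library left out and each in 6 of 13 other settings. Among the other genes named from these lists, the call was lost in some fits with 1 library left out for Trac, Cd3d and Cd207 (isotype against PBS), for Ccl7, Ccr7, Tnfrsf18, Cd209a and Cx3cl1 (anti–IL-4Rα against isotype) and for Ccl8, Ccr3, Cd4, Foxp3 and Tigit (anti–IL-4Rα against PBS), in 2 of 15 (Ccr7) to 12 of 15 (Cd209a).

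Several of these cell genes, and none of the 3 receptors, were called higher in the isotype than in the PBS group. Each receptor was set against the cell genes within the library. Ccr6 counts fell from a median of 4.26% of the summed counts of the 10 T cell genes in PBS to 2.44% with isotype control, with no overlap between the libraries (difference in log2 ratio -0.89, exact p = 0.00794, adjusted p = 0.0357). Relative to the 7 B cell genes the median went from 49.4% to 13.3%, again with no overlap (difference -1.68, exact p = 0.00794, adjusted p = 0.0357). After anti–IL-4Rα the medians were 3.29% of T cell and 22.2% of B cell counts, and neither the differences from isotype (0.44 and 0.74, adjusted p = 0.0909 and 0.0612) nor those from PBS (-0.45 and -0.95, adjusted p = 0.0714 and 0.0612) passed. A ratio moves with its denominator as much as with its numerator. Of these genes, 3 of the T cell and 2 of the B cell list were called higher in the isotype than in the PBS group.

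Ccr4 relative to the T cell genes went from a median of 8.55% in PBS to 6.29% with isotype and 6.20% after anti–IL-4Rα. Neither the first difference (log2 ratio -0.43, exact p = 0.0159, adjusted p = 0.0571) nor that between anti–IL-4Rα and PBS (-0.65, exact p = 0.0397, adjusted p = 0.0714) passed. Ccr8 relative to the T cell genes was at 0.782%, 1.08% and 0.917% in the 3 groups, with differences of 0.48 for isotype against PBS (adjusted p = 0.286) and 0.19 for anti–IL-4Rα against PBS (adjusted p = 0.655).

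**Figure D4:**
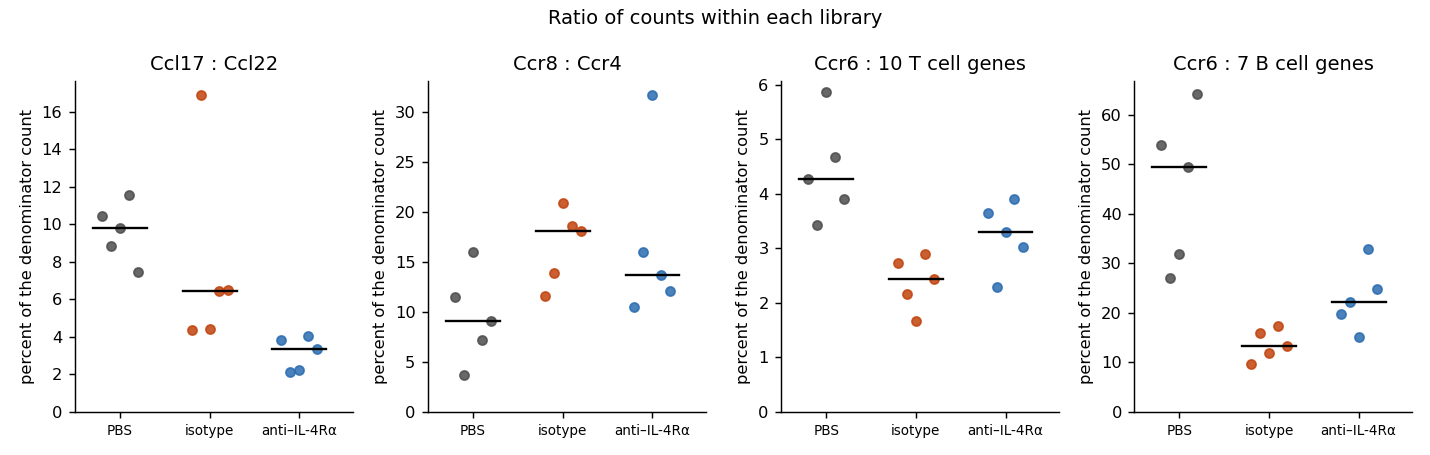
Counts of 1 gene as a percent of the counts of another gene or list in the same library (vertical axes, from 0). Counts are not scaled by exon length. Each point is 1 library and each line the group median. The anti–IL-4Rα libraries are lowest for Ccl17 relative to Ccl22, and the PBS and isotype libraries do not overlap for Ccr6 relative to T cell or B cell genes.

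Relations within groups were computed over the 15 libraries after subtracting each group's mean, for 14 pairs of ligands, receptors and cell genes, with 100000 permutations within groups. Ccr8 moved with the mean log2 level of the T cell genes (Pearson r = 0.78, permutation p adjusted over 14 = 0.0125; Spearman rho = 0.68, adjusted p = 0.0750; r = 0.69 without the 2 libraries farthest from the median). Ccr6 moved with them as well (r = 0.67, adjusted p = 0.0486), but rho was 0.58 (adjusted p = 0.177) and r fell to 0.43 without the 2 farthest libraries, so that this relation rests on them. For Ccr4 and the T cell genes r was 0.41 (adjusted p = 0.211) and rho was 0.40 (adjusted p = 0.262). None of the 3 pairs of ligand and receptor among the 6 genes passed, with r of 0.44 for Ccl17 and Ccr4 (adjusted p = 0.202), 0.45 for Ccl22 and Ccr4 (adjusted p = 0.192) and -0.02 for Ccl20 and Ccr6 (adjusted p = 0.961). Ccl17 and Ccl22 gave r = 0.60 (rho 0.71), with adjusted p of 0.0977 and 0.0750. The other 7 pairs did not pass either, with r from 0.05 (Ccl17 and dendritic cell genes) to 0.62 (Ccl22 and dendritic cell genes, adjusted p = 0.0977).

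**Figure D5:**
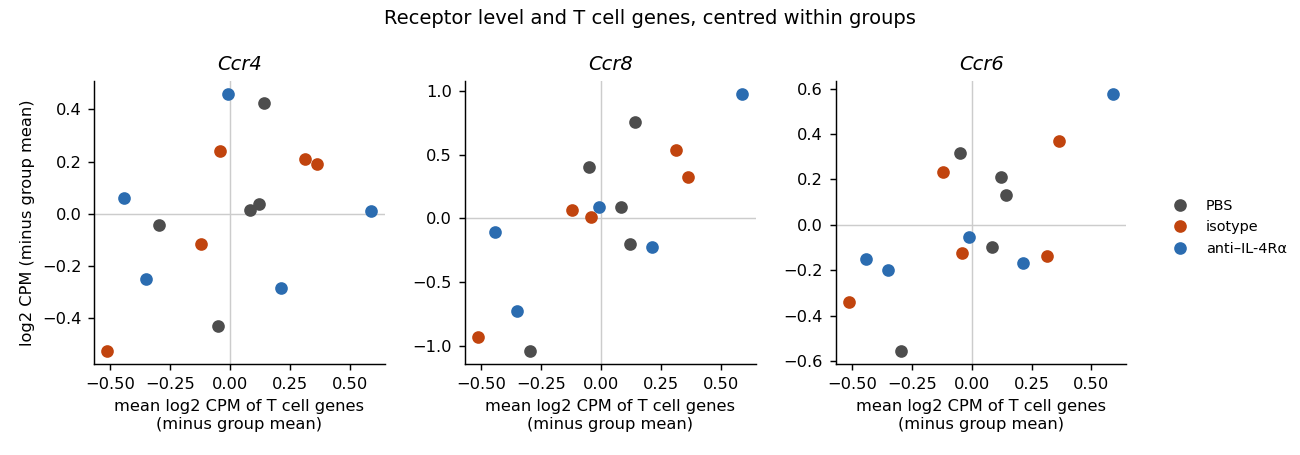
Log2 CPM of the 3 receptors (vertical axes) against the mean log2 CPM of 10 T cell genes (horizontal axes), both with the group mean subtracted, each point 1 library coloured by group. Ccr8 rises along the T cell axis (r = 0.78), Ccr6 less tightly (r = 0.67) and Ccr4 least (r = 0.41).

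Across the 15 libraries without centring, the gene most like Ccl17 among all tested was Mmp12 (macrophage elastase, r = 0.91), followed by Gm12352, Mill1, Cdkn2d and Ctdspl (r = 0.87 to 0.88). For Ccr8 it was Skap1, a T cell adaptor protein (r = 0.92), followed by Klrb1b, Il7r, Gm6377 and Cd3d (r = 0.88 to 0.90). Ccr4 was most like Zbtb5 (r = 0.92), Gdnf, Mb21d2, Traf6 and Pof1b, and Ccl22 most like B230219D22Rik (r = 0.89), Tmx3, Dscaml1, Megf6 and Gm12352. Ccl20 was most like Klf2 (r = 0.85), Fbxl21, Slc47a2, Snrnp27 and Zfp383, and Ccr6 most like Stap1 (r = 0.82), Il18r1, Vps13b, Scaper and Gm49320. They share libraries and depth with the 6 genes and are given as a description, picked as the highest among all tested genes.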

How the data were processed

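The measured samples were 15 RNA-Seq libraries of conjunctiva, grouped and numbered from their labels, which name each library as a mouse. According to the labels and the methods, RNA was prepared with a stranded poly(A) kit, read pairs were mapped in Array Studio after a quality filter at a score of 20, against genome B38 and gene models of Ensembl. The authors deposited 1 table with an estimated count per gene, neither scaled nor filtered. Whether counting used strand is not given in the sources used here. The methods mention 2 outliers without naming them in the labels, so all 15 libraries were kept. In each library 6222 to 8005 genes had a fraction, and values were rounded.

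Counts were fitted with edgeR 4.0.16 (quasi-likelihood test, TMM factors, all 3 groups, two-sided) in R 4.3.3, over the 19006 genes that reached 10 counts in 5 or more libraries, with Benjamini-Hochberg adjustment and a threshold of 0.05. The methods used a linear model on log2(FPKM + 1), which was run as an alternative. CPM values use TMM factors, and their log2 a prior count of 2. Single values and ratios (0.5 added to counts) were tested by exact permutation over 252 splits in scipy 1.17.1. Positions and exon lengths came from GENCODE (GRCm38; 55227 IDs matched, 260 did not), and promoter windows for all 6 genes from RefSeq (GRCm38.p6). On simulated counts for isotype against PBS over 18833 genes, the fit called 91 of 100 genes changed by 1 and 98 of 100 changed by 2 on the log2 scale, with 8 false calls. Each gene was simulated independently, without the differences in lacrimal content seen between libraries. The count of false calls therefore does not cover calls that follow tissue content. The changed genes were drawn only from those with a mean above 1 CPM. Ccr8 (group means of 0.27, 0.53 and 0.41 CPM) and Ccl17 after anti–IL-4Rα (0.28 CPM) lay under that level, so these shares do not cover them. Genes and lists were chosen with earlier results of these data known. Named genes were the 6, up to 2 called genes per list, direction and comparison, a few fixed genes of known role and the 5 most alike; Cd3d among the T cell genes and Cx3cl1, for its position, were named after their values were seen. Some genes that the rule names are not reported here.

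Alternatives were DESeq2 1.42.0, limma 3.58.1 (voom with sample quality weights), other scaling factors, filters, models, a replicate block and leaving out each library.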

Additional observations from a re-analysis of the deposited data

Results flagged for a closer look

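Ccr6 in anti–IL-4Rα replicate 3 stood apart from its group, at 2.07 CPM, while the other 4 libraries of that group lay between 1.19 and 1.32 CPM. Its gap to the nearest of them was 0.814 of the group's whole range on the log2 scale, above the critical value of 0.710 for 5 samples. It was 1 of 18 groups of values examined in this way, of which chance gives about 1 in 20. The same library had the lowest lacrimal acinar sum (254 CPM) and the highest summed T cell level (62.9 CPM) of its group. Without it the log2 fold change of Ccr6 was 0.16 against isotype and -0.22 against PBS, with neither called.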

How the results depend on the processing

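With 1 setting changed at a time, the number of the 6 genes called between isotype and PBS went from 0 to 1 with voom with sample quality weights, a setting that changes the model and the weighting together, and with the lacrimal covariate. Between anti–IL-4Rα and isotype it went from 2 to 0 when linear models were fitted to log2(CPM + 1) or log2(FPKM + 1), with the lacrimal covariate and in the fit to 2 groups, to 1 without a filter, and to between 1 and 2 with 1 library left out. Between anti–IL-4Rα and PBS it went from 1 to 2 with DESeq2, weighted voom, an adjusted p under 0.1 and the library of lowest lacrimal score left out in each group (PBS 1, isotype 2 and anti–IL-4Rα 3), to 0 in both linear models and with the lacrimal covariate, and to between 0 and 2 with 1 library left out. Of 18 ratio tests 4 passed, and between 3 and 9 with 1 library left out, the highest without PBS replicate 3. Both relations with T cell genes were lost with Spearman's rho, which left 0. Single values at an exact p under 0.05 numbered 2 in each comparison, with 0 to 2 for isotype against PBS when 1 library was left out and 2 to 3 for anti–IL-4Rα against isotype. The cause was not tested.

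Values near 0 turned their sign. With 1 library left out, the log2 fold change of Ccl22 for isotype against PBS ran from -0.053 to 0.10 (-0.031 and -0.0048 in others), that of Ccl20 for anti–IL-4Rα against PBS from -0.46 to 0.012, and that of Ccr6 for anti–IL-4Rα against PBS from -0.22 to 0.048; the last was 0.16 with the lacrimal covariate. In the same way the log2 ratio of Ccr8 to T cell genes for anti–IL-4Rα against PBS ran from -0.047 to 0.36, and for anti–IL-4Rα against isotype that of Ccr8 to Ccr4 ran from -0.31 to 0.072, that of Ccl22 to dendritic cell genes from -0.072 to 0.043 and that of Ccl22 to epithelium from -0.14 to 0.0060. For Ccl20 and Ccr6, rho was 0.029. Across all results and alternatives, 3696 values kept their direction and side of the threshold, 275 lost a call, 26 gained one, 20 reversed and 286 others moved.

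No pairing of the samples by replicate number was detected, though the check cannot exclude one. Deviations from group means gave r from -0.38 to 0.45 over 15 pairs of equal number, with 4 above 0.1. Over 60 pairs of unequal number r ran from -0.67 to 0.58, with 19 above 0.1. With the number as a replicate block, anti–IL-4Rα against isotype gave 1 call instead of 2 (Ccl22, adjusted p = 0.0680), and the other comparisons kept 0 and 1. For ratios the block allowed no exact p under 0.0625. Counts of 6 to 53 for Ccr8 and 12 to 18 for Ccl17 after anti–IL-4Rα limit what could be detected.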
